A study of Canis lupus familiaris with 34 samples.

Results

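The mitral valve samples of 34 Cavalier King Charles Spaniels differed widely in how much heart muscle RNA they held, and 29 of the 34 fell into a muscle-rich or a muscle-poor class. The classes were chosen by measured values: the counts of the MYH7 feature scaled to a common total count per sample (CPM). MYH7 encodes the slow, beta heavy chain of cardiac myosin. A sample was muscle-rich at 1000 CPM or more (18 dogs) and muscle-poor below 200 CPM (11 dogs), and the other 5 dogs lay between the limits. All dogs were privately owned animals of about 10 years, sampled at euthanasia, and the labels give no treatment. The label 10y-noCHF marks dogs without congestive heart failure (CHF), a mixed group in which nearly all had some myxomatous mitral valve disease (MMVD), and the label 10y-MMVD-CHF marks dogs with CHF caused by MMVD. In the study, a response to diuretics was among the grounds for the CHF diagnosis. Any effect of such treatment cannot be told apart from the label. The muscle-rich class held 10 10y-noCHF and 8 10y-MMVD-CHF dogs, the muscle-poor class 6 and 5. The muscle-rich class held 8 females and 10 males, the muscle-poor class 4 and 7. Poly-A RNA was sequenced as paired reads from mitral valve tissue, so fewer cells of a type and less RNA per cell cannot be told apart in any value below.

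A mitral valve leaflet is a thin sheet of collagen, proteoglycan and elastin made by valve interstitial cells and covered by endothelium. Its base joins the left atrial wall, from which atrial muscle can run a short way into the leaflet, and its free edge is tied through tendinous cords to the papillary muscles of the left ventricle. Atrial and ventricular muscle cells share most of their contractile proteins but differ in a few, among them the regulatory myosin light chain, which is MYL7 in the atrium and MYL2 in the ventricle. How much of the leaflet base or of its attachments each sample took in is not given in the sources used here.

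MYH7 ran from 5.07 CPM in CAV749 to 19525 CPM in CAV1047 with no clean break at either limit. The highest muscle-poor sample was CAV1872 at 169 CPM and the lowest muscle-rich sample was CAV1790 at 1223 CPM. Just outside the limits, CAV576 had 256 CPM, and CAV579 and CAV901 had 971 and 975 CPM. CAV1519 and CAV1259 had 820 and 914 CPM. The feature used is a human MYH7 gene placed on chromosome 8 of canFam4 (3752644 to 3804938), a span that also takes in MYH6, the fast, alpha heavy chain that dominates in atrial muscle. Counts of MYH6 and of the exons of the canine MYH7 gene together made up 98.2 to 102% of its counts in the 34 samples, so the classes rest on both myosins. The canine MYH7 exons alone (3782912 to 3802783) gave 321 to 7528 CPM in the muscle-rich samples, 3.80 to 70.5 CPM in the muscle-poor and 164 to 439 CPM in those between. ACTC1, the cardiac actin of the sarcomere, gave 352 to 3058 CPM, 1.39 to 63.2 CPM and 88.5 to 320 CPM in the same order. ACTC1, which the rule did not use, thus followed the label muscle-rich without overlap between the classes. Biglycan (BGN), a connective tissue proteoglycan abundant in valves, had no less than 925 CPM after TMM scaling in any sample.

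Genes of the heart muscle and energy lists took a larger part of the RNA at the upper end. The 124 genes of the heart muscle and energy lists were summed as a percentage of the TMM-scaled total, not of the raw counts. In the muscle-rich samples the sum was 1.02 to 10.7% (median 2.59%). It was 0.487 to 0.914% in the 5 samples between the limits and 0.344 to 0.434% in the muscle-poor. The 3 classes did not overlap in this sum. That follows in part from the rule, since the lists include MYH7 and MYH6, on which the classes rest. The sum is not a measure of heart muscle RNA alone. In the muscle-poor samples the oxidative phosphorylation list had a median sum of 1073 CPM and the sarcomere list 630 CPM, after TMM scaling.

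**Figure D1:**
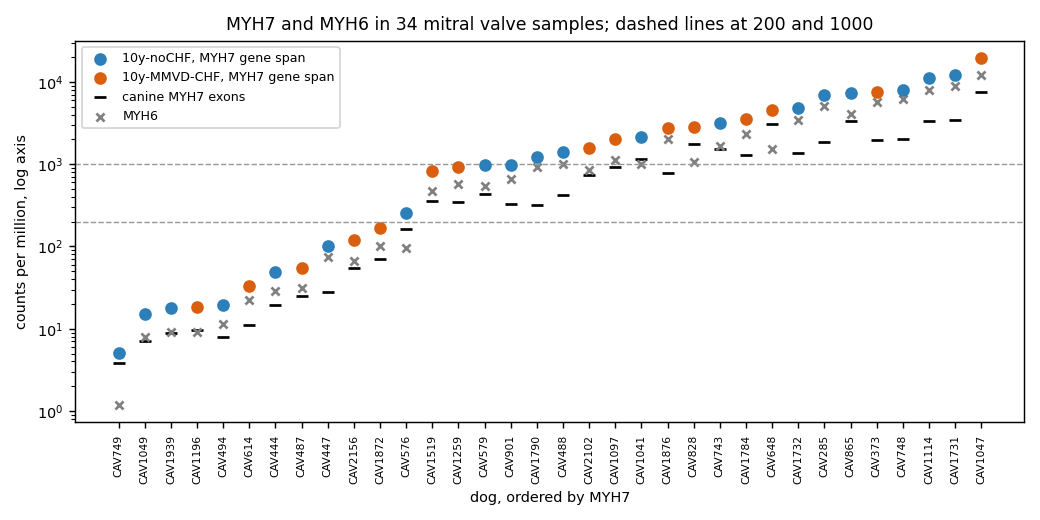
MYH7, MYH6 and the canine MYH7 exons in each of the 34 dogs (CPM, log axis), ordered by MYH7 and coloured by label; dashed lines mark 200 and 1000 CPM. Both labels occur in each class and between the limits. The lowest sample (5.07 CPM) is 10y-noCHF and the highest (19525 CPM) is 10y-MMVD-CHF.

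Both labels and both sexes were spread over the classes. The odds ratio of a 10y-noCHF dog being muscle-rich was 1.04 (two-sided Fisher's exact test, p = 1), and that of a female dog 1.4 (two-sided Fisher's exact test, p = 0.717). The classes did differ in depth. Total counts ran from 46185256 to 72694620 (median 56397800) in the muscle-rich samples and from 52795562 to 82361245 (median 65661594) in the muscle-poor. The difference of the means, muscle-rich minus muscle-poor, was -8321882 counts (two-sided permutation test, 100000 resamples, p = 0.0184). Whether this depth difference bears on the results below was not tested, beyond the scaling alternatives.

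Over all features, 2819 of 19568 tested were higher in the muscle-rich samples (14.4%) and 2269 were lower (11.6%) at an FDR below 0.1 in edgeR's quasi-likelihood test, with sex and CHF label as covariates. Because the samples were split on a measured value, these calls say only that a feature differed between the classes by more than the spread within them. For heart muscle genes, which move with MYH7, the numbers called and the differences are a description of the split, and nothing is read from their passing the threshold. The higher features moved much further than the lower ones: 1113 of the 2819 exceeded a log2 fold change of 1 and 278 exceeded 4, against 60 and 1 of the 2269 lower features. The median log2 fold change over all tested features was -0.04. The split between higher and lower features depended on scaling and on a few samples. Upper-quartile scaling gave 2562 higher and 3630 lower features, and leaving out CAV614 and CAV1047 gave 3043 and 1158. The ranges of the classes did not overlap for 426 features higher in the muscle-rich samples (2.18%) and for 2 lower features (0.0102%).

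**Figure D2:**
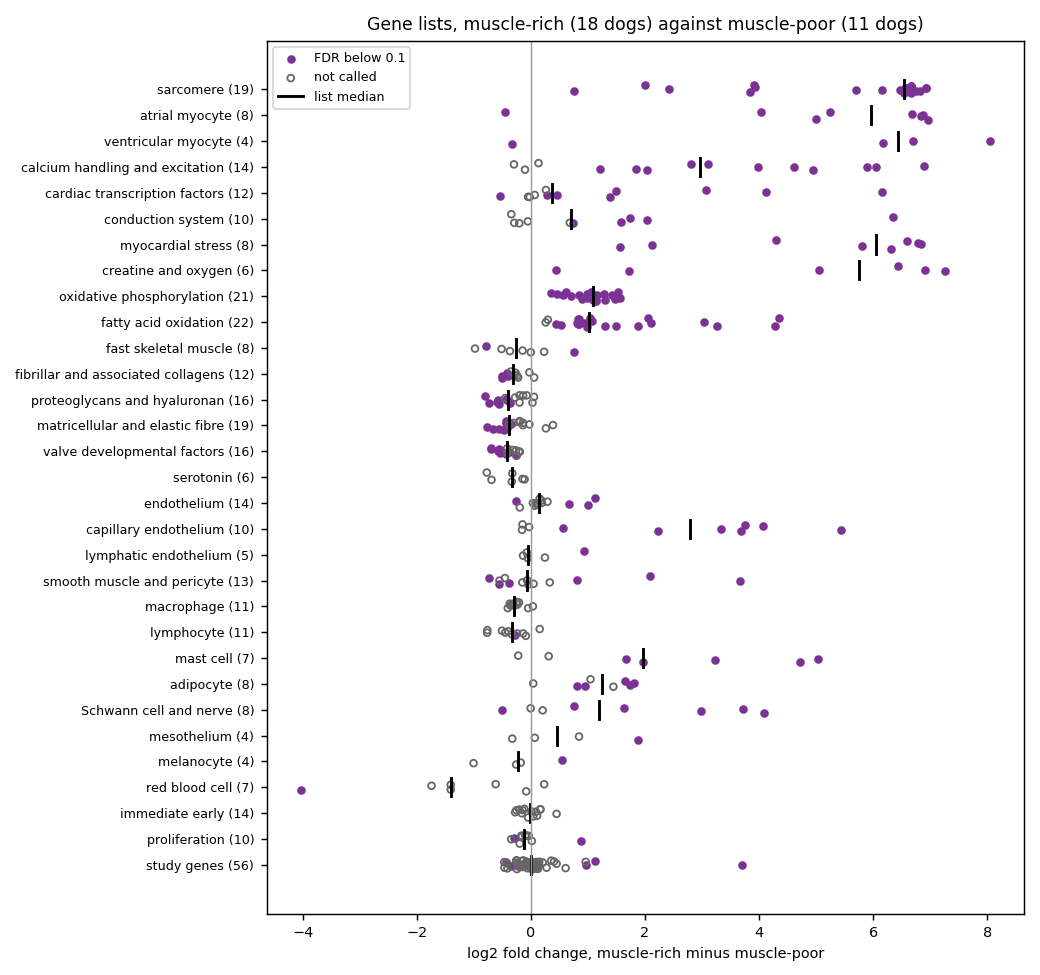
Log2 fold change, muscle-rich minus muscle-poor, of each tested member of 31 gene lists, with the number tested in brackets; filled points have an FDR below 0.1, which for the heart muscle lists only describes the split, and bars mark the list median. The heart muscle lists lie to the right, at medians of up to 6.54, and the collagen, proteoglycan, matricellular and developmental lists lie just left of 0.

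All 19 tested sarcomere genes were higher in the muscle-rich samples, with a median log2 fold change of 6.54, against 14.4% of all features higher. The ranges of 17 did not overlap, against 2.18% of all features. The list includes MYH7, on which the classes rest. MYBPC3, the myosin-binding protein of the cardiac thick filament, had 135 to 2012 CPM (median 394) in the muscle-rich samples and 0.193 to 19 CPM (median 3.31) in the muscle-poor, a log2 fold change of 6.94 (SE 0.65). Levels from here on are CPM after TMM scaling. TNNT2, cardiac troponin T, had 224 to 4398 CPM against 2.35 to 37 CPM. TTN, the giant spring of the sarcomere, had 252 to 4549 CPM against 0.645 to 54.6 CPM. Every muscle-rich sample lay above every muscle-poor one for these 3 genes. Among the smaller differences in the list, TPM1, a tropomyosin that smooth muscle and fibroblasts also express, differed by 2.01 (SE 0.26), with 722 to 5648 CPM against 402 to 662 CPM. LMOD3, an actin nucleator of striated muscle, had the smallest difference, 0.76 (SE 0.32), at no more than 2.51 CPM in any sample of either class, and it was not called in 18 of the 29 fits that left out 1 dog.

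Most atrial muscle genes were higher in the muscle-rich samples. This describes the split, since the classes rest in part on MYH6, an atrial myosin that is itself on the list. MYL7 had 131 to 1658 CPM (median 371) in the muscle-rich samples and 0.619 to 18.3 CPM (median 2.71) in the muscle-poor, a log2 fold change of 6.68 (SE 0.60). The atrial essential light chain MYL4 had 159 to 2870 CPM against 0.825 to 29.5 CPM. NPPA, the atrial natriuretic peptide, had 130 to 3455 CPM against 0.516 to 66.1 CPM, and sarcolipin (SLN), the atrial regulator of the calcium pump, 1.90 to 47.6 CPM against 0 to 1.64 CPM. None of the 4 overlapped between the classes. Of the 8 atrial genes 7 were higher, with a list median of 5.96, against 14.4% of all features. The exception was the atrial potassium channel KCNA5, which was lower at -0.45 (SE 0.17), with 4.58 to 12.1 CPM against 5.30 to 23.1 CPM, and it was not called without CAV749, CAV1049, CAV1196 or CAV447. In the dogs between the limits MYL7 had 23.1 to 123 CPM, above all muscle-poor samples and below all muscle-rich ones.

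The ventricular light chain behaved unlike the atrial one from dog to dog. MYL2 had the greatest fitted log2 fold change of the lists, 8.05 (SE 1.30), but its level in the muscle-rich samples ran from 0.318 CPM in CAV1876 to 538 CPM in CAV743, with a median of 3.64 CPM. The second highest was CAV865 at 93.9 CPM, and the other 16 muscle-rich samples had no more than 22.9 CPM. The muscle-poor samples had 0 to 0.423 CPM, so 16 of the 18 muscle-rich samples lay above all of them. Between the limits, CAV576 had 75.7 CPM and the other 4 had 0.169 to 1.68 CPM. The count ratio of MYL2 to MYL7 in one sample compares dogs without comparing the levels of different genes. In the muscle-rich class it ran from 0.00144 to 1.77 with a median of 0.00956, the next highest value after CAV743 being 0.114. In CAV576 it was 3.27. Thus 2 of the 34 samples, both 10y-noCHF, stood far above the rest in this ratio. Without CAV743 the MYL2 difference was 6.64, and with all 34 dogs split at 500 CPM, which puts CAV576 in the lower class, it was 2.66. MYL3, an essential light chain of ventricular and slow muscle, had 3.97 to 124 CPM against 0.0516 to 1.08 CPM. HEY2, a transcription factor of the ventricle that endothelium also expresses, was lower in the muscle-rich samples at -0.33 (SE 0.11).

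**Figure D3:**
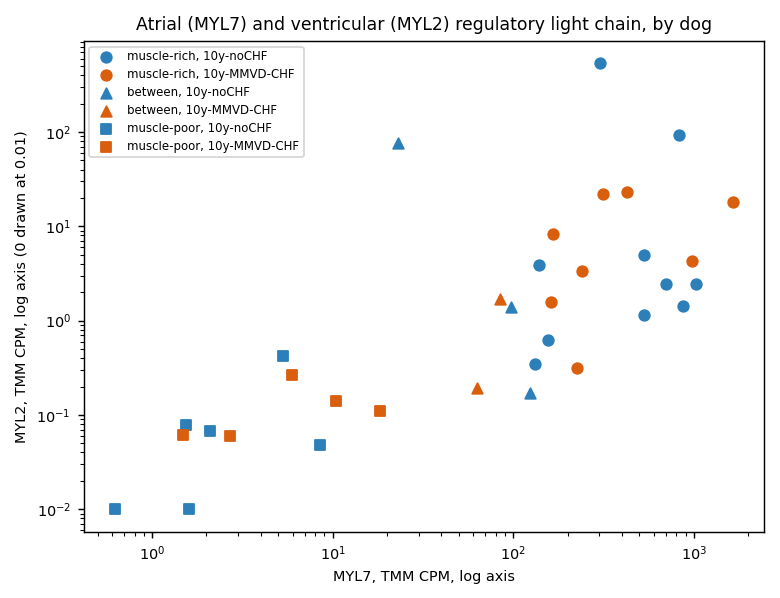
MYL2 against MYL7 in each dog (TMM-scaled CPM, log axes; MYL2 values of 0 drawn at 0.01), by class and label. MYL7 separates the classes, and CAV743 (538 CPM of MYL2) and CAV576 (75.7 CPM) stand above the samples of similar MYL7.

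The ratio of MYH6 to the canine MYH7 exons, which the class rule did not use, ran from 0.498 in CAV648 to 3.04 in CAV748 in the muscle-rich class. Its mean log2 value was 0.390 ± 0.908 (SD, n = 8) in 10y-MMVD-CHF dogs and 0.998 ± 0.667 (SD, n = 10) in 10y-noCHF dogs. The difference of -0.61 was within the spread (two-sided exact permutation test, p = 0.125, adjusted p = 0.498 over 4 ratios). The log2 ratios of MYL2, NPPA and NPPB to MYL7 differed between the labels by 0.44, 0.27 and -0.06 (exact permutation p = 0.739, 0.524 and 0.894, adjusted p = 0.894 for each). These 4 ratios were picked after the values had been seen.

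Most genes of calcium handling and myocardial stress were higher in the muscle-rich samples. The share to set beside the numbers in this paragraph is the 14.4% of all features that were higher. Of 14 genes of calcium handling and excitation, 11 were higher and 3 were not called, with a median of 2.96. CASQ2, the calcium store protein, had 48.3 to 804 CPM against 0.0774 to 7.63 CPM. The pump ATP2A2 and the release channel RYR2, which have forms outside the heart, were present in the muscle-poor samples too, at 69.8 to 164 CPM and 28.5 to 62.9 CPM, and their differences were smaller, 3.11 (SE 0.35) and 2.81 (SE 0.35). Of 10 conduction system genes, 5 were higher and 5 were not called, with a median of 0.71 and a range from -0.34. HCN4, the main pacemaker channel, had 27.1 to 200 CPM against 0.0348 to 3.83 CPM, a log2 fold change of 6.36 (SE 0.57). All 8 genes of myocardial stress were higher, among them NPPB at 11.4 to 292 CPM against 0.120 to 5.66 CPM. Myoglobin (MB), which stores oxygen in muscle, had 131 to 3044 CPM against 0.232 to 17.2 CPM, a log2 fold change of 7.26 (SE 0.72).

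Mitochondrial genes differed in the same direction by far less. Over all features 14.4% were higher, and 2.18% were higher without overlap. All 21 oxidative phosphorylation genes were higher, with a median of 1.09 and a range of 0.36 to 1.56, and the ranges of 10 did not overlap. COX5A, a subunit of cytochrome c oxidase, had 19.3 to 132 CPM against 12.5 to 17.5 CPM. COX6A2, the heart and skeletal muscle form of another subunit, stands in the creatine and oxygen list and differed by 6.44 (SE 0.59). Of 22 fatty acid oxidation genes 20 were higher, with a median of 1.01. The greatest differences were those of the coactivator PPARGC1A at 4.36 (SE 0.47) and the fatty acid carrier FABP3 at 4.29 (SE 0.34). CPT2, a mitochondrial acyltransferase, differed by 0.26 (SE 0.12) and was not called.

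Of 12 cardiac transcription factors, 7 were higher, 1 was lower and 4 were not called, with a median of 0.37. Over all features 14.4% were higher and 11.6% lower. NKX2-5, which marks heart muscle, had 2.28 to 39 CPM against 0 to 0.561 CPM. TBX5 was expressed in both classes and differed by 1.39 (SE 0.22), with 39.1 to 241 CPM against 27.3 to 41.4 CPM. TBX18, a factor of epicardial and mural cells, was lower in the muscle-rich samples at -0.54 (SE 0.14).

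Fast skeletal muscle genes did not, as a list, follow heart muscle. Of 8 tested, 1 was higher (MYLPF, 0.75, SE 0.25), 1 was lower (ACTN3, -0.78, SE 0.25) and 6 were not called (median -0.26). These numbers are near the shares over all features, 14.4% higher and 11.6% lower. MYH1, the fast skeletal heavy chain 2X, had 0 to 2.39 CPM (median 0.0619) in the muscle-rich samples and 0 to 0.776 CPM (median 0.182) in the muscle-poor. The fitted difference was -0.0019 (edgeR FDR 0.998). No standard error is given, since the one used here is derived from the fitted difference and is unreliable for a value near 0. MYH1 was highest in CAV865, a muscle-rich 10y-noCHF dog. The direction of MYH1 changed with single samples, from -0.86 without CAV865 to 0.40 without CAV1196. The MYH1 feature lies inside that of MYHAS, and reads of overlapping features cannot be told apart since the counts were made without strand.

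A part of the matrix genes was lower in the muscle-rich samples, by modest amounts. Of 12 collagens 5 were lower and 7 were not called (median -0.32). Of 16 proteoglycan and hyaluronan genes 8 were lower (median -0.40), and of 19 matricellular and elastic fibre genes 10 were lower (median -0.38). No gene of the 3 lists was higher. These medians compare with -0.04 over all features, and the numbers of lower genes with the 11.6% of all features given above. BGN, a small leucine-rich proteoglycan, had 925 to 3663 CPM (median 1860) in the muscle-rich samples and 2223 to 3503 CPM (median 2854) in the muscle-poor, a log2 fold change of -0.59 (SE 0.15, edgeR FDR 0.00619). Tenascin C (TNC) differed by -0.76 (SE 0.18), chondroadherin (CHAD) by -0.80 (SE 0.25) and the microfibril protein MFAP4 by -0.67 (SE 0.19). The range of each overlapped between the classes. Summed over the list, the proteoglycans had 8590 to 21529 CPM (median 13038) against 13116 to 22393 CPM (median 19170). COL1A1 differed by -0.50 (SE 0.19, edgeR FDR 0.0602), and without CAV494 or CAV487 it was not called. COL3A1, at -0.28 (SE 0.18), and decorin (DCN), at -0.28 (SE 0.12), were not called. With all 34 dogs split at 500 CPM the numbers of lower genes fell to 1 collagen, 3 proteoglycan and 8 matricellular genes.

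Factors that pattern the developing valve were lower as well, in 9 of 16 cases, against 11.6% of all features. All 16 had a negative value (median -0.41). BMP4, a signal of the bone morphogenetic protein family, gave the clearest separation. It had 35.3 to 63.3 CPM (median 54.2) in the 18 muscle-rich samples and 70.5 to 95.2 CPM (median 87.1) in the 11 muscle-poor, with no overlap. The 5 dogs between the limits, which entered no comparison, had 51.0 to 78.6 CPM. The log2 fold change was -0.69 (SE 0.08, edgeR FDR 5.08e-08), and it stayed between -0.74 and -0.55 under the alternative settings and between -0.71 and -0.66 when any 1 sample was left out. The 2 features whose ranges lay lower without overlap were both BMP4 features, the canine one (chromosome 8, 30299531 to 30306532) and its human counterpart. SOX9, a regulator of cartilage-like matrix, had 40.5 to 108 CPM (median 60.2) against 57.5 to 172 CPM (median 105), and 16 of the 18 muscle-rich samples lay at or below the muscle-poor median. TWIST1, a mesenchymal factor, differed by -0.56 (SE 0.11) and TGFB3, a growth factor, by -0.58 (SE 0.15). Of 6 serotonin pathway genes none was called.

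**Figure D4:**
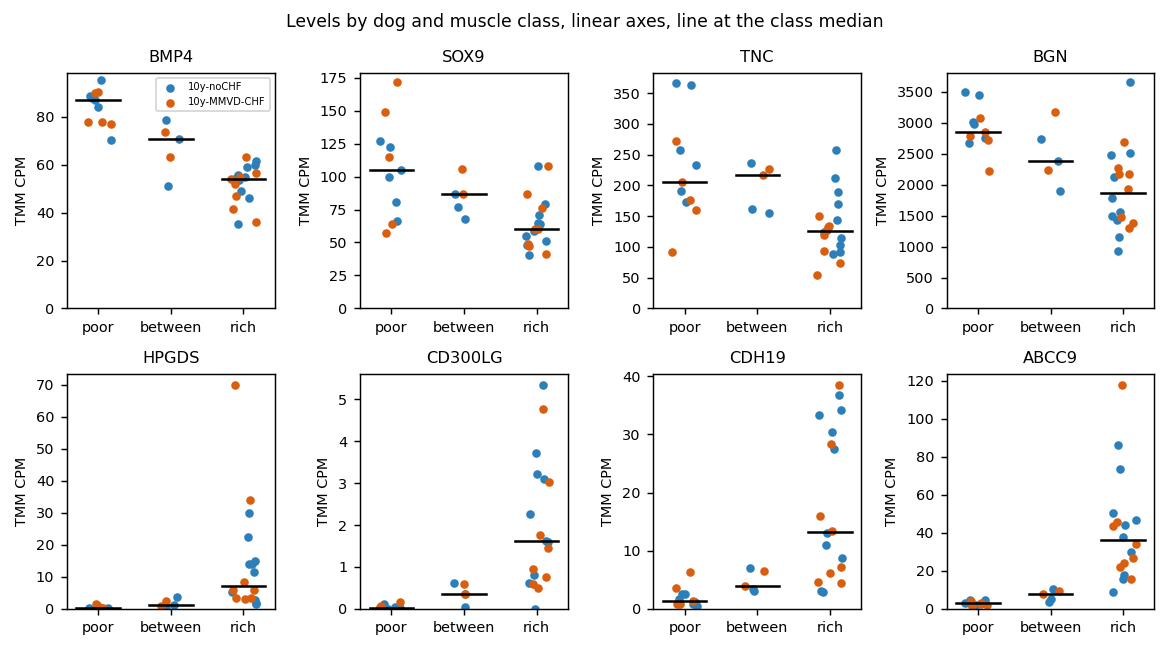
Levels of 8 genes in each dog by class (TMM-scaled CPM, linear axes), coloured by label, with a line at the class median. BMP4 separates the classes, with 63.3 CPM as the highest muscle-rich and 70.5 CPM as the lowest muscle-poor value; HPGDS and ABCC9 also separate them in the other direction.

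Markers of cells that accompany muscle were higher in the muscle-rich samples, although at low levels. Of 10 genes of capillary endothelium 7 were higher and none lower (median 2.78), against 14.4% of all features. CD300LG, a receptor of capillary endothelium, had 0 to 5.35 CPM (median 1.61) against 0 to 0.164 CPM (median 0.0240), a log2 fold change of 5.44 (SE 0.66). Its muscle-poor level rests on 30 counts over 11 samples. The summed list overlapped between the classes, at 380 to 575 CPM against 324 to 499 CPM. GPIHBP1, which holds lipoprotein lipase on capillaries, had 0.279 to 5.05 CPM against 0 to 0.336 CPM. Of 14 general endothelial genes 3 were higher, 1 lower and 10 not called (median 0.14). VWF, the clotting protein of endothelium, had 51.2 to 557 CPM (median 113) against 17.4 to 183 CPM (median 59.9), a log2 fold change of 1.13 (SE 0.28, edgeR FDR 0.00519). KDR, a receptor for vascular growth factor, differed by 0.66 (SE 0.19), and ENG, an endothelial co-receptor, by -0.27 (SE 0.11), which was not called in 13 of the 29 fits that left out 1 dog. Of 5 lymphatic genes only PROX1, which heart muscle also expresses, was called, at 0.93 (SE 0.21).

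Smooth muscle and pericyte genes were split, with 3 of 13 higher and 3 lower (median -0.07), against 14.4% and 11.6% of all features. ABCC9 and KCNJ8, the subunits of a potassium channel of pericytes, of which ABCC9 is also made by heart muscle, were higher at 3.67 (SE 0.35) and 2.10 (SE 0.35). ABCC9 had 9.08 to 118 CPM against 1.45 to 4.82 CPM. The lower genes ACTG2, CNN1 and TAGLN, all contractile genes of smooth muscle, differed by -0.73, -0.57 and -0.39, and none of the 3 was called without CAV614, CAV1049, CAV1196, CAV494 or CAV487. Of 7 mast cell genes 5 were higher (median 1.96), against 14.4% of all features. The summed level was 3.31 to 74.4 CPM against 0.670 to 9.45 CPM. HPGDS, a prostaglandin D synthase, had 1.4 to 70.1 CPM against 0.119 to 1.38 CPM, a log2 fold change of 4.72 (SE 0.62). This 1 gene can thus supply most of the sum. KIT, the stem cell factor receptor, differed by 1.96 (SE 0.36). Of 8 Schwann cell and nerve genes 5 were higher and 1 lower (median 1.20), against 14.4% and 11.6% of all features. Their summed level was 98.1 to 475 CPM against 56 to 138 CPM. CDH19, a cadherin of Schwann cells, had 2.89 to 38.6 CPM (median 13.2) against 0.473 to 6.36 CPM (median 1.31), a log2 fold change of 2.99 (SE 0.49). Of 8 adipocyte genes 5 were higher (median 1.25), against 14.4% of all features, with a summed level of 74.5 to 334 CPM against 52.8 to 127 CPM. The number called was 3 without CAV1196 or CAV373 and 7 without CAV444. What part such cells have in the differences of other genes was not tested. PLIN1, which coats fat droplets, differed by 1.65 (SE 0.60) and ADIPOQ, adiponectin, by 1.80 (SE 0.72). PLIN1 was not called in 2, and ADIPOQ in 9, of the 29 fits that left out 1 dog. Both overlapped widely, with PLIN1 at 0.286 to 36 CPM against 0.522 to 14.9 CPM.

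Immune and blood genes gave few differences. None of 11 macrophage genes and 1 of 11 lymphocyte genes was called, with medians of -0.29 and -0.34, against 11.6% of all features lower. Without CAV743, 4 genes of each list were called lower, and 3 macrophage genes without CAV487, 2 without CAV1784 and 1 without CAV1041, and 2 lymphocyte genes without CAV1097. The summed macrophage list ran from 685 to 2154 CPM in the muscle-rich samples and from 909 to 1898 CPM in the muscle-poor. The lymphocyte gene called was NKG7, a protein of cytotoxic granules, at -0.28, whose span is shared with ZNF534. CD68 and C1QB, both macrophage genes, differed by -0.41 (SE 0.19) and -0.37 (SE 0.20). Of 7 red blood cell genes only HBM, a minor alpha-type globin, was called, at -4.03 (SE 1.08). This rests on 6 counts over all muscle-rich samples and 126 over the muscle-poor, of which CAV614 had 94, and without CAV614 it was -2.01 and not called (edgeR FDR 0.195). None of 14 immediate early genes was called. Of 10 proliferation genes 1 was higher (CDK1, 0.88, SE 0.22) and 1 lower (AURKB, -0.30, SE 0.12), against 14.4% and 11.6% of all features, and AURKB was not called in 12 of the 29 fits that left out 1 dog. Single mesothelial (WT1, 1.88, SE 0.40) and melanocyte (MITF, 0.54, SE 0.17) genes were higher, of 4 tested in each list.

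Outside all lists, the 10 higher features with the smallest p were CA14, LOC440700, ITGB6, HHATL, PGAM2, SYNPO2L, DDN, TNNT1, SH3BGR and RBM20. LOC440700 overlaps CA14, a membrane carbonic anhydrase, which had 9.02 to 101 CPM against 0.193 to 1.55 CPM. PGAM2 is the muscle form of phosphoglycerate mutase, TNNT1 slow troponin T and RBM20 the splicing factor of titin. ITGB6, an integrin chain best known from epithelium, had 8.47 to 132 CPM against 0.0258 to 0.848 CPM, a log2 fold change of 7.12 (SE 0.53). The lower features with the smallest p included BRCA2, CNN3, NR2F2, CLIP3, GNA14, FAM227B, PCDHGC4, PCDHGC5 and TENT5C, which differed by between -0.70 and -0.34. NR2F2, a transcription factor of atrial, venous and mesenchymal cells, had 41.6 to 75.7 CPM against 67.8 to 107 CPM. CNN3, a calponin of non-muscle cells, had 172 to 257 CPM against 231 to 287 CPM. The values of FAM227B, CLIP3 and the PCDHGC features are uncertain, since other genes overlap them. For 76.4% of the higher and 69.8% of the lower features, the median of the dogs between the limits lay between the class medians. Over all tested features it was 40.4%. The called features were chosen for a difference between the classes, which sets their class medians apart, so nothing is read from this comparison.

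The CHF label was then compared with the muscle class as a covariate. The class does not hold heart muscle content fixed, since MYH7 still ran from 1223 to 19525 CPM within the muscle-rich dogs. Label and heart muscle content within a class were thus not separated. With class as a covariate 7 features differed between 10y-MMVD-CHF and 10y-noCHF (0.0358% of those tested), 2 higher and 5 lower with CHF. They include features of VWF, BMPER and FOSB. VWF was higher with CHF by 1.49 (SE 0.27, edgeR FDR 0.0743) and so differed with both the label and the class. BMPER, a regulator of BMP signalling, was lower by -1.37 (SE 0.26), and FOSB, an immediate early transcription factor, by -1.59 (SE 0.31). All are among the 56 genes that the study chose on these dogs for their difference between the labels, so their calls are not independent evidence. With 1 feature per gene symbol none was called, nor was any when 1 of 10 dogs was left out (CAV749, CAV1196, CAV614, CAV487, CAV488, CAV2102, CAV828, CAV648, CAV1732 or CAV1731).

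In the muscle-poor dogs 21 features differed between the labels (0.107%), 6 higher and 15 lower with CHF. In the muscle-rich dogs none did (0%), while DESeq2 called 3 there. At an unadjusted p below 0.05 in edgeR there were 741 of 19568 features in the muscle-rich dogs and 1071 in the muscle-poor. The 741 are fewer than the share of 0.05 that would pass if no feature differed. PIM1, a survival kinase, had 5.17 to 10.05 CPM (median 8.94) in the 6 muscle-poor 10y-noCHF dogs and 12.9, 13.1, 20.02, 20.2 and 30.9 CPM in the 5 10y-MMVD-CHF dogs. These did not overlap, and the log2 fold change was 1.25 (SE 0.23, edgeR FDR 0.0251). In the muscle-rich dogs the labels overlapped, with a PIM1 difference of -0.02 (SE 0.19, edgeR FDR 0.999). Among the other called features with the smallest p, CYGB (cytoglobin) was higher with CHF in the muscle-poor dogs by 1.07 (SE 0.19). SCN9A, a sodium channel gene, was lower by -1.10 (SE 0.20). The features of PRCD and CYGB overlap, as do those of SCN1A-AS1 and SCN9A, and each pair gave nearly the same values. The number of called features in the muscle-poor dogs fell from 21 to 2 without CAV1196, to 3 without CAV614, to 12 without CAV749 and to 13 without CAV444, and PIM1 was not called without CAV614.

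The difference of the CHF effect between the classes was itself tested, and 2 features passed (0.0102%), both of ABCB1, the drug efflux pump P-glycoprotein. The canine ABCB1 feature had 5.04 to 8.74 CPM (median 6.05) in muscle-poor 10y-noCHF dogs. It had 2.02, 2.15, 2.51, 2.71 and 3.92 CPM in muscle-poor 10y-MMVD-CHF dogs. In the muscle-rich dogs the labels overlapped, at 1.98 to 5.71 CPM (median 3.35) without and 2.32 to 5.82 CPM (median 4.18) with CHF. The effect was -1.27 (SE 0.24) in the muscle-poor and 0.51 (SE 0.19) in the muscle-rich dogs, and the difference was 1.78 (SE 0.30, edgeR FDR 0.0518). The call was lost when any of 13 of the 29 dogs was left out (CAV1049, CAV1196, CAV614, CAV444, CAV487, CAV447, CAV1872, CAV1876, CAV743, CAV1784, CAV285, CAV865 or CAV1047), with a difference of 1.70 to 2.05 over all 29 such fits.

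CNTN3 and MYH1 are 2 of the genes the study named. Of its 56 genes, 3 were higher in the muscle-rich samples and 3 lower, with a median of -0.01, against 14.4% and 11.6% of all features. With 1 dog left out, 3 to 5 were higher and 1 to 6 lower. CNTN3, a neural adhesion protein of the contactin family, had the greatest difference, 3.70 (SE 0.78, edgeR FDR 0.000992). The 5 muscle-poor 10y-MMVD-CHF dogs had 0, 0, 0.0273, 0.182 and 0.193 CPM and the 6 muscle-poor 10y-noCHF dogs 0 to 0.104 CPM. In the muscle-rich class, 10y-noCHF dogs had 0 to 1.05 CPM (median 0.248) and 10y-MMVD-CHF dogs 0.223 to 9.79 CPM (median 1.45), with CAV1047, the dog of the highest MYH7, at the top. The CHF effect on CNTN3 was 2.78 (SE 0.75, unadjusted p = 0.000895, edgeR FDR 0.999) in the muscle-rich dogs and 0.56 (SE 1.12) in the muscle-poor. Without CAV1047 it was 1.47 in the muscle-rich dogs. The difference between the classes, 2.22 (SE 1.38), was not called. ALDH1A2, which makes retinoic acid, was also higher in the muscle-rich samples, at 0.96 (SE 0.33), and VWF was given above. PRSS22, MOSPD2 and XPC differed by -0.43, -0.34 and -0.20, and they were not called in 10, 3 and 9 of the 29 fits that left out 1 dog. MYH1 showed a CHF effect of -3.03 (SE 1.06) in the muscle-rich and -2.59 (SE 1.32) in the muscle-poor dogs, called in neither. NPPC, the C-type natriuretic peptide, differed with CHF by 1.75 (SE 0.57) and 2.32 (SE 0.68) in the same order, and MAOA, which breaks down serotonin, by 0.42 (SE 0.13) and 0.30 (SE 0.16). Neither was called in either class.

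**Figure D5:**
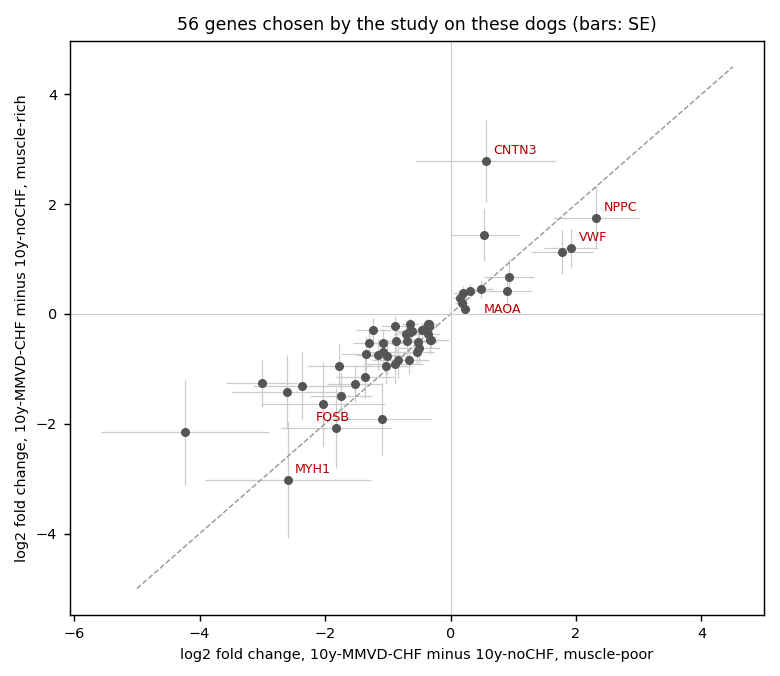
CHF effect (log2 fold change, 10y-MMVD-CHF minus 10y-noCHF) in the muscle-rich against the muscle-poor dogs for the 56 genes the study chose on these dogs; bars are standard errors and the dashed line marks equal effects. CNTN3 lies above the line, at 2.78 in the muscle-rich and 0.56 in the muscle-poor dogs, and the difference was not called.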

How the data were processed

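Raw read counts per gene feature were deposited as 1 table for the whole series, made by the authors with STAR on canFam4 and featureCounts 2.0.3. Per the file headers both reads of a pair were counted separately and without strand, and reads over overlapping features counted for each. The features were 2165 canine RefSeq genes and 21603 human genes placed on the canine genome, whose spans include introns. Of 35 count columns, 1 belongs to no sample and was not used. Classes were set from MYH7 counts scaled to the column total (CPM). Features with at least 100 counts over 34 samples (19568) were fitted with edgeR 4.0.16 in R 4.3.3 (TMM, quasi-likelihood, sex, CHF label and class; FDR below 0.1, Benjamini-Hochberg). The CHF contrasts within classes and their difference came from 1 fit of the 4 combinations of class and label, with sex. Standard errors are the log2 fold change over the root of the F statistic. For genes with several features the canine one, otherwise the one with most counts, stands for the gene. Scripts were tested on simulated data. Ratios used a pseudocount of 0.5. Exact and permutation tests were run in SciPy 1.17.1.

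Named genes are list members with the most or least change, the 10 features of smallest p in each direction outside the lists, called features of the CHF contrasts (at most 10 each), and 11 genes of the study. A few genes are not reported here. Members, lists and tests were chosen with earlier results of these data known. Each dog gave 1 sample, and p-values measure the spread between dogs. Alternatives were other normalizations, filters, limits and covariates, DESeq2 1.42.0, limma 3.58.1 (voom), a class rule on the canine MYH7 feature (added after seeing the data), and leaving out each sample.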

Additional observations from a re-analysis of the deposited data

Results flagged for a closer look

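In 56 groups of dogs (14 measures in the 4 combinations of class and label), 4 held a dog far from the others by Dixon's test, against about 2.8 by chance. CAV1041 had the highest summed capillary endothelium list of the muscle-rich 10y-noCHF dogs, at a log2 CPM of 9.17 against 8.87 for the next. CAV1047, the dog of the highest MYH7, had the highest Schwann cell and nerve sum of the muscle-rich 10y-MMVD-CHF dogs, at 8.89 against 7.61, and the lowest macrophage sum, at 9.63 against 10.4. CAV447 had the lowest log2 count ratio of NPPB to MYL7 among the muscle-poor 10y-noCHF dogs, at -6.09 against -3.32.

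The CHF effect on ABCB1 differed between the classes by the interaction term of the fit, by 1.78 for the canine and 1.58 for the human feature on the log2 scale (edgeR FDR 0.0518 and 0.0754).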

How the results depend on the processing

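The comparisons of the CHF label within a class rest on 5 to 10 dogs per label. Of 111 named genes called between the classes, 90 kept their call in every setting run and none changed direction. The 111 include heart muscle genes, which the MYH7 rule itself sets apart, so nothing is read from these numbers. The count of features between the classes was 3827 to 6192 under other settings and 4176 to 5607 with 1 sample left out. MYH1 between the classes changed sign with RLE (0.013), DESeq2 (0.023), no CHF term (0.17), limits of 2000 and 100 CPM (0.12), 1 feature per symbol (0.00077) and canine MYH7 classes (0.0252), and ran from -0.86 to 0.40 with 1 sample left out.

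For the CHF label with class as covariate, 7 features became 35 with DESeq2, 24 with 1 limit at 500 CPM, 3 with canine MYH7 classes, and 0 with voom, limits of 2000 and 100 CPM, 1 feature per symbol or FDR 0.05, and 0 to 10 with 1 sample left out. Within muscle-rich, 0 became 3 with DESeq2. Within muscle-poor, 21 became 67 with DESeq2, 5 with limits of 2000 and 100 CPM, 10 with 1 limit, 9 with 1 feature per symbol and 3 without CAV614 and CAV1047, and 2 to 26 with 1 sample left out. For the difference between classes, 2 became 20 with DESeq2, 1 with library size only or 1 feature per symbol, and 0 without sex, with 1 limit, without CAV614 and CAV1047, or at FDR 0.05, and 0 to 3 with 1 sample left out. The causes were not tested. CNTN3 within muscle-poor was -0.54 with voom, -0.0159 with limits of 2000 and 100 CPM, and -0.16 to 0.93 with 1 sample left out.

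The odds ratio of class by CHF label was 0.857 with 1 limit, 0.686 with limits of 2000 and 100 CPM and 0.952 without CAV614 and CAV1047, and 0.833 to 1.25 with 1 sample left out. The difference in total counts was -5222000 (p = 0.138, permutation) with 1 limit and -6538000 (p = 0.0977) with limits of 2000 and 100 CPM. The log2 NPPB/MYL7 difference was 0.22 with 1 limit, 0.0243 without CAV614 and CAV1047 and -0.28 to 0.21 with 1 sample left out, and that of MYL2/MYL7 was -0.23 with limits of 2000 and 100 CPM. No paired analysis was possible because each dog gave 1 sample and the groups share no replicate numbers.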
